A study of Mus musculus with 20 samples.

Results

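The genes described here are 10 members of the Notch pathway, measured across the microvascular compartments of the mouse kidney cortex: the receptors Notch1, Notch2, Notch3 and Notch4, the ligands Dll4, Jag1 and Jag2, and the target genes Hey1, Hey2 and Heyl. They were chosen by symbol from the 34255 genes of the deposited count table, in which all 10 have a row. All mice were untreated, wild-type (genotype WT), male C57BL/6 OlaHsd mice aged 8 to 12 weeks. There were 5 groups of 4 libraries. Laser microdissection (LMD) of cryosections from snap-frozen kidneys gave peritubular capillaries (PTC), postcapillary venules (PCV), glomeruli (G) and arterioles (A), and sections of whole kidney (WK) were the reference group. Arterioles, glomeruli and venules had been picked by their shape under hematoxylin, and peritubular capillaries by the endothelial stain isolectin B4, so that every group holds the cells around the endothelium as well. Arterioles and peritubular capillaries were cut over a smaller area than glomeruli and venules. LMD libraries had been made with a low-input protocol and 24 PCR cycles, WK libraries with 18, and this difference cannot be told apart from the difference between a compartment and whole kidney.

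Notch receptors are single-pass membrane proteins that are activated by ligands of the Delta and Jagged families on a neighboring cell. Ligand binding lets an ADAM protease and then gamma-secretase cut the receptor, and the released intracellular domain enters the nucleus, where it joins the DNA-binding protein RBPJ and switches on genes of the Hes and Hey families of transcriptional repressors. In blood vessels the pathway is known for arterial identity, with Dll4 and Notch4 in endothelium and Notch3 in vascular smooth muscle cells and pericytes, while Notch2 also acts in the developing nephron.

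The libraries held 4639090 to 12283098 counts. Each carries its group and its column number, 93, 96, 98 or 100, and values per library follow that order. Levels are CPM, a library's counts brought to a fixed total after its total was scaled by trimmed mean of M-values (TMM). The labels describe biological replicates but tie none to a mouse, so each p-value rests on the spread of the libraries, which may in part be technical. Marker genes placed the groups as labelled in part. Summed levels of 14 smooth muscle genes were 23246 to 54590 CPM in arterioles and at most 2810 CPM in glomeruli, and 10 podocyte genes summed to 8080 to 9196 CPM in glomeruli. The 16 endothelial genes summed to 3670 to 5766 CPM in arterioles, 3701 to 4330 in glomeruli, 687 to 1793 in peritubular capillaries and 941 to 1442 in venules, against 503 to 613 in whole kidney. Proximal tubule genes reached 70884 to 131442 CPM in peritubular capillaries, above the 40312 to 42376 CPM of whole kidney. The venous list did not set venules apart: it summed to 559 to 661 CPM there and 573 to 1917 CPM in arterioles. Ackr1, a marker of venular endothelium, had 3 counts over all 20 libraries and none in arterioles, glomeruli or venules, too few to place any group.

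A pair of stretches of upstream sequence are shown because they belong to the member with the largest fold change between arterioles and whole kidney, Hey2, and to the receptor with the highest mean level in arterioles, Notch3. RBPJ binds a core of TGGGAA, which reads TTCCCA on the other strand, and both forms were searched in the 250 bases before the start site of each gene in the RefSeq promoter table (GRCm38.p6). The table held 8 of the 10 members and no entry for Hey1 and Heyl. The core was present in 1 of these 8 members, Hey2, on the reverse strand with its first base 207 bases before the start, and in 21.6% of all 32851 promoters of the table. The sequences run 5′ to 3′ along the gene, with the core in capitals. The Hey2 stretch lies at chr10:30842784-30843033 and the Notch3 stretch at chr17:32166891-32167140, both on the minus strand.
Hey2: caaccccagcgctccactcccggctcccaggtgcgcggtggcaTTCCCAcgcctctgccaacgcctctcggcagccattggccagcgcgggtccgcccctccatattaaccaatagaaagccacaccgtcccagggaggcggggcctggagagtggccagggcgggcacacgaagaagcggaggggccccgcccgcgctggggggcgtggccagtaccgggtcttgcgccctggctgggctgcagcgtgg
Notch3: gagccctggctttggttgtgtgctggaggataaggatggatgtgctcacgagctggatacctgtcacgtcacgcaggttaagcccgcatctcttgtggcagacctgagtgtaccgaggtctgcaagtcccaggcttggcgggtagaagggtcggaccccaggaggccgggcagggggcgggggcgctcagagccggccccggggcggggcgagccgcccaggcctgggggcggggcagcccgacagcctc
A match of the core says nothing about binding in these samples, and its absence from a window says only that these letters are not in it.

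The 10 genes took 0.137% ± 0.0172 of all counts in arterioles, 0.0426% ± 0.00664 in glomeruli, 0.00392% ± 0.00538 in peritubular capillaries, 0.0121% ± 0.00568 in venules and 0.00750% ± 0.000998 in whole kidney (SD, n = 4). In all, 9 genes had their highest mean in arterioles, and Notch1 had its highest mean in glomeruli. Depth was thin where levels were low: 28 of the 40 values in peritubular capillaries and 17 of 40 in venules rested on fewer than 10 counts, against 2 in arterioles, 4 in glomeruli and 7 in whole kidney. A count of 0 allows a level of up to 0.331 to 0.556 CPM, depending on the library, which covers counting error only. In these bulk samples, fewer cells of a type and less RNA per cell cannot be told apart.

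**Figure D1:**
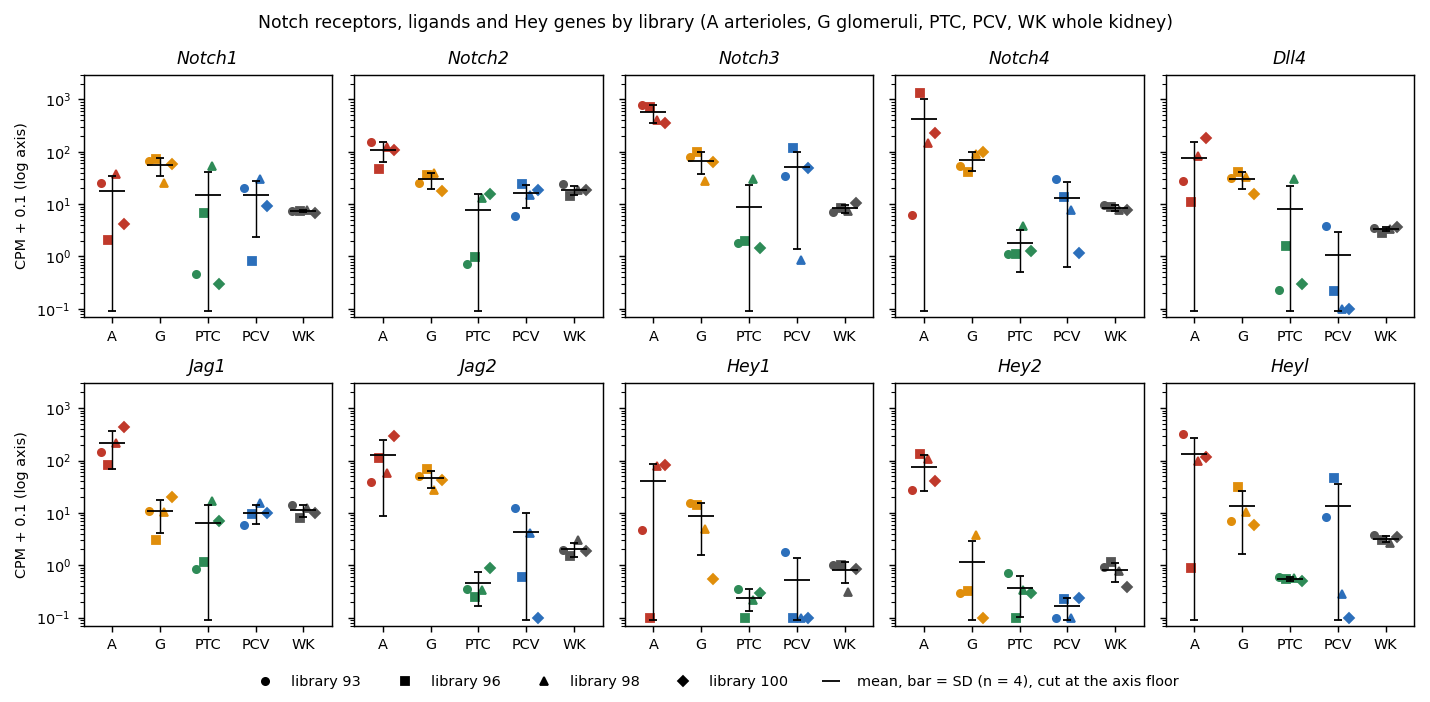
Level of each gene in each library, as CPM plus 0.1 on a log axis, by group, with the letters A, G, PTC, PCV and WK as defined above; marker shapes give the library number, and lines and bars the mean and SD (n = 4). Hey2 and Jag1 lay higher in all 4 arteriole libraries than in any other library, whereas Notch1 did not.

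Notch3, the receptor of smooth muscle cells and pericytes, was the most abundant receptor of arterioles by mean. Its levels were 790.0, 708, 414 and 352 CPM in arterioles, and 78.0, 100.4, 27.6 and 65.1 CPM in glomeruli. They were 34.3, 117, 0.741 and 48.8 CPM in venules, 1.74, 1.92, 29.7 and 1.37 CPM in peritubular capillaries, and 6.89, 8.52, 7.40 and 10.2 CPM in whole kidney. All arteriole libraries lay above all others, while the neighbors in the rest of the order, from glomeruli through venules and peritubular capillaries to whole kidney, overlapped. Against whole kidney, Notch3 was higher in arterioles by a log2 fold change of 6.10 ± 1.04 (SE; edgeR quasi-likelihood test, Benjamini-Hochberg adjusted p, hereafter FDR, 8.05e-05). It remained called without each library in turn (FDR at most 0.00117). The difference from venules was 3.49 ± 0.96 (edgeR FDR 0.0291), a call that was lost without arteriole 93 or venule 93, 98 or 100 (log2 fold change 3.07 to 4.33, FDR up to 0.0885). In glomeruli, Notch3 exceeded all WK libraries, but the log2 fold change of 3.04 ± 0.90 did not pass (edgeR FDR 0.0534). The difference between arterioles and glomeruli, 3.06 ± 0.94, did not pass either (edgeR FDR 0.0792), although it was called in 6 of the 7 other settings tried.

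Notch4, an endothelial receptor, was high in arterioles on average but uneven. Arteriole levels were 6.18, 1316, 150.4 and 233 CPM, and arteriole 93 lay below all 4 WK libraries (7.54 to 9.52 CPM). Glomerular levels were 54.0, 41.8, 90.3 and 98.2 CPM, those of venules 30.8, 13.4, 7.78 and 1.07 CPM, and those of peritubular capillaries 0.994, 1.03, 3.73 and 1.17 CPM. Glomerular libraries lay above all venule, capillary and WK libraries, and capillary libraries lay below all WK libraries. The log2 fold change of arterioles against whole kidney was 5.67 ± 1.07 (edgeR FDR 0.000344). It fell to 3.94 without arteriole 96, and remained called in each of the 8 fits that left out 1 library (FDR at most 0.0287). Glomeruli exceeded peritubular capillaries by 5.34 ± 1.12 on the log2 scale (edgeR FDR 0.00186), and this call was kept without each library (FDR at most 0.0109). Arterioles exceeded venules by 4.996 ± 1.09 (edgeR FDR 0.00431), but without arteriole 96 the difference was 3.28 and was not called (FDR 0.143).

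Notch2 and Notch1 differed less between the groups. Notch2, a receptor with known roles in the developing nephron, stood at 152, 47.5, 121 and 107 CPM in arterioles and at 25.04, 36.5, 40.1 and 17.6 CPM in glomeruli. Venule levels were 5.94 to 24.1 CPM, capillary levels 0.621 to 15.8 CPM and WK levels 14.4 to 23.7 CPM. Arterioles lay above all other libraries, yet the log2 fold change against whole kidney (2.51 ± 1.13, edgeR FDR 0.115) did not pass the test. It was called in 3 of the 7 other settings tried. Notch1, the receptor through which Dll4 restrains sprouting in endothelium, was 67.1, 71.9, 25.6 and 59.4 CPM in glomeruli and 25.4, 1.93, 38.1 and 4.10 CPM in arterioles. Glomerular libraries lay above all WK libraries (6.71 to 7.54 CPM) and overlapped with every other compartment, since venules ranged from 0.729 to 29.8 CPM and capillaries from 0.196 to 53.4 CPM. Its log2 fold change in glomeruli against whole kidney was 2.96 ± 1.52 (edgeR FDR 0.361), and edgeR called Notch1 in 0 of the 14 contrasts as fitted here, with 0 at an unadjusted p under 0.05. Of the 7 other settings tried for glomeruli against whole kidney, the version 4 form of the test and the fit of only these groups did call it.

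Among the ligands, Jag1 was the one that set arterioles apart from each other group. Jag1, which signals to Notch3 in the arterial wall, was 147, 83.5, 217 and 432 CPM in arterioles. Levels were 10.8, 2.87, 10.1 and 19.6 CPM in glomeruli, 0.746, 1.03, 16.8 and 6.85 CPM in peritubular capillaries, 5.71, 9.48, 15.2 and 9.78 CPM in venules and 14.3, 7.83, 12.1 and 10.01 CPM in whole kidney. The arteriole libraries lay above every other library, and the other 4 groups overlapped with one another. Jag1 was higher in arterioles than in whole kidney by 4.31 ± 1.09 on the log2 scale (edgeR FDR 0.00801, at most 0.0433 without any 1 library). It was the only member that edgeR called between arterioles and glomeruli, at 4.34 ± 1.20 (FDR 0.0442), and the call was lost without arteriole 98 or 100 or any glomerular library (log2 fold change 3.78 to 4.79, FDR up to 0.155). This call was also lost with library number as a block in the fit (edgeR FDR 0.0589). Against venules the difference was 4.45 ± 1.21 (edgeR FDR 0.0265), which was lost without arteriole 100 or any venule library (3.89 to 4.73, FDR up to 0.103).

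Jag2, a ligand also found in arterial endothelium, was shared by arterioles and glomeruli. It stood at 39.6, 110.1, 57.1 and 295 CPM in arterioles and at 51.1, 68.1, 26.7 and 42.9 CPM in glomeruli. Capillary libraries held 0.249, 0.147, 0.233 and 0.782 CPM, from 1 to 4 counts each, venule libraries 12.1, 0.486, 4.08 and 0 CPM, and WK libraries 1.82, 1.38, 2.88 and 1.79 CPM. Arterioles and glomeruli overlapped, both lay above all venule, capillary and WK libraries, and capillaries lay below all WK libraries. Jag2 was higher in arterioles than in whole kidney by 5.98 ± 1.44 on the log2 scale (edgeR FDR 0.00510), higher in arterioles than in peritubular capillaries by 8.45 ± 1.77 (FDR 0.00118) and higher in glomeruli than in peritubular capillaries by 7.04 ± 1.67 (FDR 0.00713). These 3 calls were kept without each library in turn (FDR at most 0.0343). Against whole kidney, the log2 fold change in glomeruli was 4.57 ± 1.34 (edgeR FDR 0.0510), short of the threshold of 0.05, as was that between arterioles and venules (4.90 ± 1.49, FDR 0.0505).

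Dll4, the ligand of arterial and tip cell endothelium, varied widely within the groups. Its levels were 27.7, 11.1, 82.4 and 186 CPM in arterioles, 32.0, 40.9, 32.3 and 15.6 CPM in glomeruli and 0.124, 1.47, 29.5 and 0.196 CPM in peritubular capillaries. Venule libraries held 3.81, 0.122, 0 and 0 CPM, and WK libraries 2.76 to 3.49 CPM. Arterioles and glomeruli overlapped with each other and lay above all WK libraries. Arterioles also lay above all venule libraries, as did glomeruli. The log2 fold change of arterioles against whole kidney (4.57 ± 1.72, edgeR FDR 0.0692) and against venules (6.25 ± 2.04, FDR 0.0688) did not pass. As fitted here, Dll4 was called only against the mean of the other 3 compartments (3.63 ± 1.20, edgeR FDR 0.0432), and that call was lost in 11 of the 16 fits that left out 1 library (FDR up to 0.185). Of the 7 other settings tried for arterioles against whole kidney, 4 did call it, among them the independent filter of the study.

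Hey2, a repressor known for its part in arterial fate and in the heart, was close to restricted to arterioles in these libraries. It stood at 27.1, 132, 107 and 40.5 CPM in arterioles. In glomeruli it was 0.200, 0.221, 3.74 and 0 CPM, in peritubular capillaries at most 0.621 CPM, in venules at most 0.134 CPM and in whole kidney 0.283 to 1.04 CPM. The 4 arteriole libraries lay above all 16 others, and the other 4 groups overlapped except that venules lay below whole kidney. Hey2 was higher in arterioles than in whole kidney by 6.74 ± 1.91 on the log2 scale (edgeR FDR 0.0191), and the call was lost without arteriole 96 or any WK library (log2 fold change 6.33 to 6.97, FDR up to 0.0744). The libraries held 2125 counts in arterioles and 2 in venules, a ratio per scaled total of 1256 (95% counting interval 347 to 10374). The fitted difference from venules depended on the prior count of the fit and was called (edgeR FDR 0.0129), but not without venule 93 (FDR 0.0540). Against glomeruli the log2 fold change of 6.18 ± 2.06 did not pass (edgeR FDR 0.105).

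Heyl, which is known from vascular smooth muscle cells, and Hey1, which acts with Hey2 in arterial endothelium, were absent or nearly so from 1 arteriole library. Heyl was 327, 0.805, 97.5 and 115 CPM in arterioles, and Hey1 was 4.69, 0, 77.4 and 81.4 CPM. Arteriole 96 was thus the lowest of its group for both, and the highest for Notch4 and Hey2. Heyl was 6.91, 31.4, 10.1 and 5.85 CPM in glomeruli, 8.18, 45.9, 0.185 and 0 CPM in venules, 0.391 to 0.497 CPM in peritubular capillaries and 2.60 to 3.65 CPM in whole kidney. Its capillary libraries lay below all WK and glomerular libraries, and its glomerular libraries above all WK libraries. Heyl was higher in arterioles than in whole kidney by 5.43 ± 1.62 on the log2 scale (edgeR FDR 0.0257), and the call was lost without arteriole 93 or any WK library (log2 fold change 4.48 to 5.84, FDR up to 0.0897). Against peritubular capillaries it was higher by 8.18 ± 1.99 (edgeR FDR 0.00528), and this call was kept without each library (FDR at most 0.0290). Hey1 was 15.2, 13.8, 4.91 and 0.441 CPM in glomeruli and at most 1.68 CPM in peritubular capillaries, venules and whole kidney. Its difference between arterioles and whole kidney, 5.85 ± 2.18, did not pass (edgeR FDR 0.0676), although it was called in 2 of the 6 other settings tried. Hey1 was called between arterioles and peritubular capillaries (8.04 ± 2.67, edgeR FDR 0.0446), a call that was lost without arteriole 98 or 100 or any capillary library (7.45 to 8.47, FDR up to 0.0979), and without a filter on low counts (FDR 0.0535). This call was also lost with library number as a block in the fit.

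Over the contrasts with whole kidney, which share the 4 WK libraries, the members called were those of arterioles. A gene was called at an edgeR FDR under 0.05 over all 13813 genes tested and a log2 fold change past 1. In arterioles 6 of 10 members were higher (Notch3, Notch4, Jag1, Jag2, Hey2 and Heyl) against 5.78% of all genes tested that were higher. The members' median log2 fold change was 5.55, and that of all genes tested 0.22. All 10 passed the filter on low counts, but that filter needs counts in only 4 libraries, so Hey1 and Hey2 passed through the compartments in which they were high. In 6 members all arteriole libraries lay above all WK libraries, which held for 8.45% of genes.

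In glomeruli, edgeR called 0 of 10 members against whole kidney (3.06% of all genes were called in either direction). An unadjusted p under 0.05 was reached by 3 members (2077 of 13813 genes), and DESeq2 called 3. The ranges did separate for 6 members, Notch1, Notch3, Notch4, Dll4, Jag2 and Heyl, all above whole kidney (14.6% of all genes), and the median log2 fold change was 3.00 against 0.25 over all genes. Notch3 and Notch4 missed the threshold here and were each called in 6 of the 7 other settings tried. In peritubular capillaries 0 members were called by edgeR or DESeq2 (0.0941% of genes in edgeR, either direction), and 1 had an unadjusted p under 0.05 (1719 genes). The capillary range lay below that of whole kidney for Notch4, Jag2 and Heyl (18.3% of genes). The median was -1.32. In venules 0 members were called by either tool (0.224% of genes, either direction), and 1 had an unadjusted p under 0.05 (1293 genes). Hey2 was the single member whose range lay apart, below whole kidney (14.4% of genes). The venule median was 0.26, against 0.19 over all genes.

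**Figure D2:**
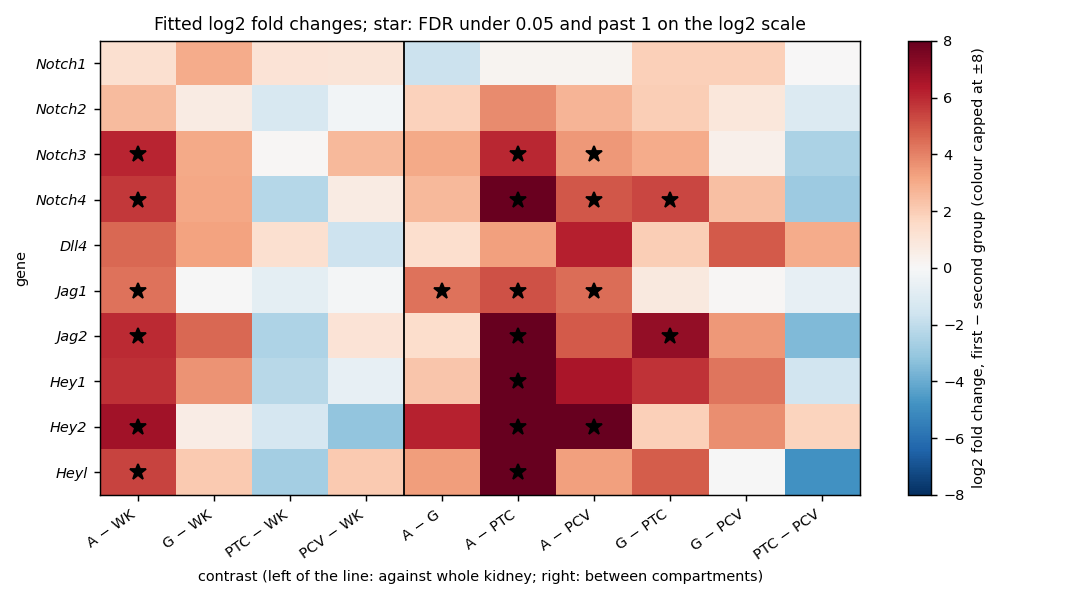
Fitted log2 fold change of each gene (rows) in the 4 contrasts with whole kidney and the 6 contrasts between compartments (columns), with color capped at 8 in either direction and stars for genes called at an FDR under 0.05 and a log2 fold change past 1. Stars stood in the 4 contrasts of arterioles, with 6, 1, 7 and 4 members, and in glomeruli against peritubular capillaries, with 2.

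Between compartments, 12179 genes were tested in the 16 LMD libraries, and the 6 contrasts share libraries as well. Arterioles exceeded peritubular capillaries in 7 of 10 members, Notch3, Notch4, Jag1, Jag2, Hey1, Hey2 and Heyl (6.22% of genes were higher), and in 7 members the ranges lay apart (6.19% of genes). Hey1, Hey2, Jag2 and Heyl held 4, 8, 9 and 13 counts over the capillary libraries. They thus passed the filter on low counts through the compartments in which they were high. Arterioles exceeded venules in 4 members, Notch3, Notch4, Jag1 and Hey2 (2.50% of genes), and exceeded glomeruli in Jag1 alone (1.31% of genes). Ranges lay above those of glomeruli for Notch2, Notch3, Jag1 and Hey2 (4.47% of genes), and above those of venules for 6 members (5.03%). Glomeruli exceeded peritubular capillaries in Notch4 and Jag2 (2.20% of genes), with separate ranges in Notch2, Notch4, Jag2, Hey1 and Heyl (9.76%). Between glomeruli and venules edgeR called 0 members (1.22% of genes, either direction), although 3 had an unadjusted p under 0.05 (1404 of 12179 genes) and DESeq2 called 2. Between peritubular capillaries and venules edgeR called 0 (0.386% of genes), with 4 at an unadjusted p under 0.05 (1370 genes) and 2 called by DESeq2. Glomerular ranges lay above those of venules for Notch4, Dll4 and Jag2 (6.97% of genes). For no member did capillaries and venules lie apart, where 3.19% of genes lay above and 3.38% below.

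Set against the mean log level of the 3 remaining compartments, weighted equally, 9 of 10 members, all but Notch1, were higher in arterioles by edgeR (8.08% of genes). The limit of the filter on low counts given above for Hey1, Hey2, Jag2 and Heyl holds here too. The log2 fold changes ran from 2.80 ± 0.91 for Notch2 (FDR 0.0396) to 8.05 ± 1.38 for Hey2 (FDR 6.75e-05). The calls of Notch3, Notch4, Jag1, Jag2, Hey1, Hey2 and Heyl were kept in all 16 fits that left out 1 library, and those of Notch2 and Dll4 were each lost in 11. Peritubular capillaries were lower in 4 members (2.91% of genes): Notch3 at -3.84 ± 0.92 (edgeR FDR 0.00592), Notch4 at -5.39 ± 1.07 (FDR 0.000826), Jag2 at -6.35 ± 1.56 (FDR 0.00787) and Heyl at -5.97 ± 1.74 (FDR 0.0279). Without arteriole 93 or any capillary library the call of Heyl was lost (FDR up to 0.0785). The Notch3 difference was -6.20 without capillary 98. In glomeruli edgeR called 0 members (3.77% of genes, either direction), 2 had an unadjusted p under 0.05 (1864 of 12179 genes) and DESeq2 called 1. In venules the numbers were 0 (0.509% of genes), 2 (1492 genes) and 2.

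One capillary library carried most of the reads of its group for several members. Capillary 98 held 458 counts of Notch1, against 3, 45 and 1 in the others, 255 of Notch3, against 14, 13 and 7, and 253 of Dll4, against 1, 10 and 1. It held 1265 counts on the 10 members together, the others 50, 92 and 139. Its endothelial marker genes summed to 724 CPM, within the range of the other capillary libraries, and its arterial endothelial genes to 187 CPM, below them. Its mesangial and pericyte genes summed to 285 CPM, above the 102 to 218 CPM of the others, and its smooth muscle genes to 820 CPM, within their range of 591 to 1130 CPM; the part of these cells in the values was not tested. Without it, the capillary mean changed from 15.2 ± 25.7 to 2.40 ± 3.67 CPM for Notch1 (SD, n = 4 and n = 3), from 8.69 ± 14.03 to 1.68 ± 0.280 CPM for Notch3 and from 7.82 ± 14.5 to 0.598 ± 0.760 CPM for Dll4. Jag2, Hey1, Hey2 and Heyl were low in all 4 capillary libraries, at no more than 5 counts each. The part of the proximal tubule reads in the low capillary levels was not tested.

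The mix of receptor reads differed between the groups. QuantSeq 3′ libraries give reads near the 3′ end of a transcript, so reads were compared without scaling to length, as a description with no test. In whole kidney, Notch2 held the largest share of reads on the 4 receptors, 43.7% ± 5.53 (SD, n = 4), and the other receptors held 17.03% to 19.7%. In arterioles Notch3 held 55.8% ± 19.5 and Notch4 29.6% ± 26.3, while Notch1 held 2.14% ± 2.35. Glomeruli had no leading receptor, with 32.7% ± 14.9 for Notch4, 29.2% ± 10.9 for Notch3, 24.3% ± 7.28 for Notch1 and 13.7% ± 6.15 for Notch2. In venules Notch3 held 44.3% ± 32.7. Capillary shares spread too far to order, with a highest mean of 31.9% ± 31.0 for Notch1.

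**Figure D3:**
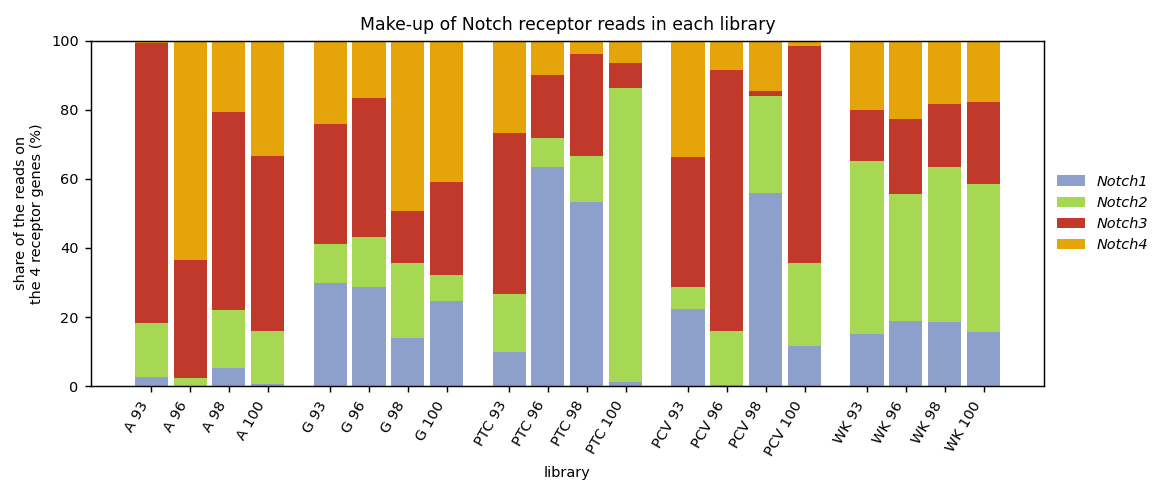
Share of the reads on the 4 receptor genes that fell on each receptor (stacked bars, in %), for each of the 20 libraries. Notch2 was the largest part in all 4 WK libraries, and Notch3 in 3 of the 4 arteriole libraries; arteriole 96 had more Notch4.

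The ligand mix differed in the same descriptive way. Jag1 held 67.6% ± 3.90 of ligand reads in whole kidney, 54.4% ± 12.6 in arterioles and 74.8% ± 33.5 in venules, but 13.5% ± 9.31 in glomeruli (SD, n = 4). Glomerular ligand reads came mostly from Jag2, at 52.2% ± 9.4995, and Dll4, at 34.3% ± 11.03. All 4 glomerular libraries thus had less Jag1 than any WK or arteriole library by this share, the highest glomerular share being 25.1% and the lowest arteriole and WK shares 40.8% and 65.4%. Of the Hey reads in arterioles, Heyl held 43.7% ± 37.5, Hey2 40.5% ± 41.3 and Hey1 15.8% ± 17.7, so no order could be read among them.

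Because the compartments differed in endothelial and mural marker reads, 6 members were also expressed per 1000 CPM of a marker list in the same library. The markers themselves can differ between compartments, so such a ratio is not a level per like cell. Emcn, for one, is in the endothelial list, and the paper reports that its mRNA was low in arterioles. Per 1000 CPM of smooth muscle, mesangial and pericyte markers, Notch3 was 13.0 ± 1.88 in arterioles, 14.6 ± 6.96 in glomeruli, 23.8 ± 22.8 in venules, 8.14 ± 12.5 in peritubular capillaries and 10.4 ± 0.929 in whole kidney (SD, n = 4). Arteriole ratios ran from 10.96 to 15.5 and WK ratios from 9.55 to 11.7, so the ranges of these groups overlapped on this scale. The mean log2 ratio of arterioles minus glomeruli was -0.02 for Notch3 (two-sided exact permutation p = 0.971, n = 4 each, adjusted p = 0.999). The make-up of the marker sum differed between these groups. Smooth muscle genes summed to a mean of 36923 CPM and mesangial and pericyte genes to 6890 CPM in arterioles, against 2406 and 2276 CPM in glomeruli.

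The scaled level of Jag2 had its lowest mean in peritubular capillaries, with differences from arterioles and glomeruli that did not pass after adjustment. Per 1000 CPM of endothelial markers it was 29.8 ± 32.2 in arterioles, 11.8 ± 5.08 in glomeruli, 3.18 ± 4.37 in venules, 0.315 ± 0.0926 in peritubular capillaries and 3.53 ± 1.22 in whole kidney. The capillary ratios of Jag2, 0.215 to 0.436, lay below all its arteriole ratios (7.08 to 77.6) and all its glomerular ratios (6.17 to 18.4). The mean log2 ratios differed by 6.04 between arterioles and peritubular capillaries and by 5.16 between glomeruli and peritubular capillaries (exact permutation p = 0.0286 each, n = 4, adjusted p = 0.206). Notch4 was 17.2 ± 6.03 per 1000 in glomeruli and 2.11 ± 2.06 in peritubular capillaries, a log2 difference of 3.40 with the same p. That p was also reached by Dll4 between glomeruli and venules and by Heyl between glomeruli and peritubular capillaries. With 4 libraries against 4 this is the smallest p such a test can give. After Benjamini-Hochberg adjustment 0 of the 36 scaled tests passed, with 5 at an unadjusted p under 0.05. At this floor the adjustment can be passed only when many of the 36 tests reach it, so not passing does not show that the ratios were alike. The part of cell content in the values of Notch2, Jag1, Hey1 and Hey2, and that of the fibroblast markers, which summed to 2720 to 5926 CPM in arterioles and 699 to 850.5 CPM in glomeruli, was not tested.

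**Figure D4:**
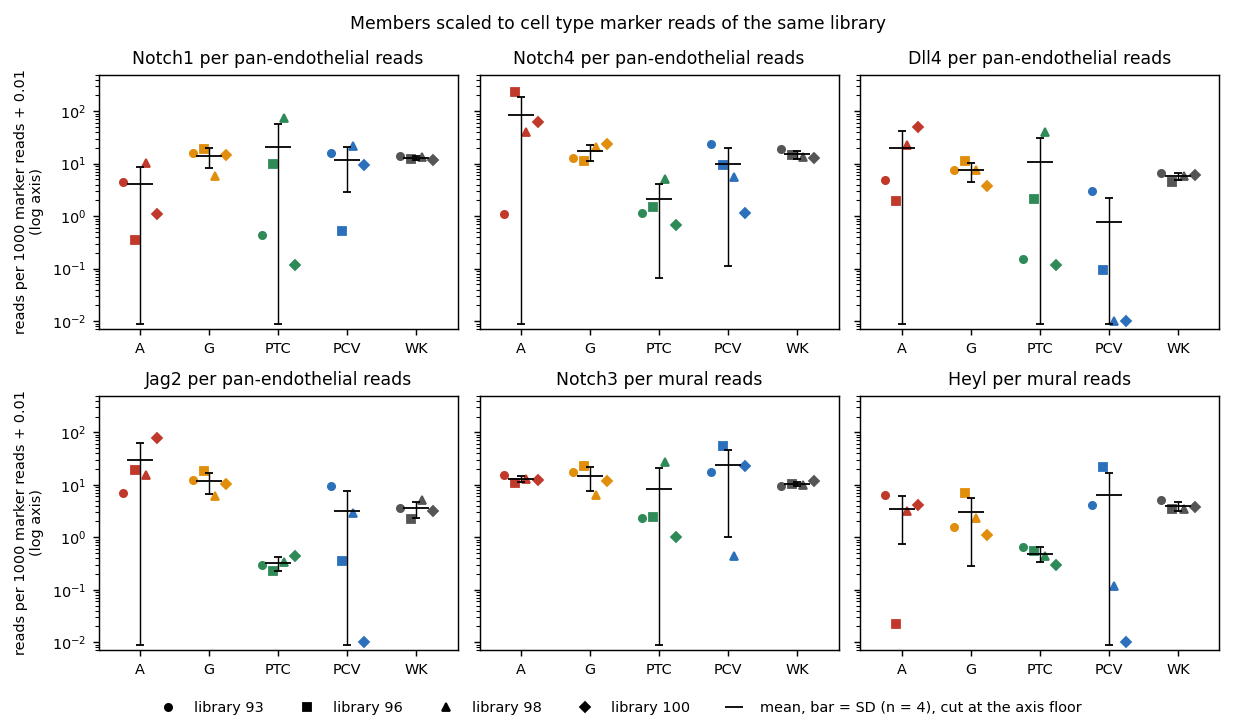
Level of 6 members per 1000 CPM of a cell type marker list in the same library, plus 0.01, on a log axis, with endothelial markers for Notch1, Notch4, Dll4 and Jag2 and smooth muscle, mesangial and pericyte markers for Notch3 and Heyl; lines and bars are the mean and SD (n = 4). Notch3 ran from 10.96 to 15.5 in arterioles and 9.55 to 11.7 in whole kidney, while Jag2 stayed between 0.215 and 0.436 in peritubular capillaries.

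Of the wider pathway, 74 further genes were listed by role, and 65 of them were tested against whole kidney. Of the 29 genes tested for receptor cleavage, glycosylation and ligand uptake, attenuation and further ligands, edgeR called 0 in any compartment. In arterioles 9 of these 29 had an unadjusted p under 0.05 and DESeq2 called 10, in glomeruli the numbers were 2 and 1, in peritubular capillaries 2 and 1, and in venules 0 and 0. Of 15 genes of the nuclear complex and its corepressors, 1 was called higher in arterioles, near the share of all genes tested (5.78%). This was Crebbp, an acetyltransferase coactivator, at 2.02 ± 0.59 on the log2 scale (edgeR FDR 0.0228). Rbpj itself was 134, 256, 48.9 and 0.357 CPM in arterioles and 19.5 to 23.0 CPM in whole kidney, and its difference did not pass (edgeR FDR 0.235). Hes1, a target shared by many cell types, was 39.9, 1.29, 227 and 0.892 CPM in arterioles and 57.5 to 82.6 CPM in whole kidney (log2 fold change -0.15 ± 0.89, edgeR FDR 0.925). Its highest means were 199 ± 96.1 CPM in venules and 194 ± 89.2 CPM in glomeruli (SD, n = 4), with ranges that overlapped those of arterioles.

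The arterial and venous identity list held most of the calls. In arterioles 7 of 14 tested genes were higher than in whole kidney (5.78% of all genes): the gap junction gene Gja4 (6.70 ± 1.13, edgeR FDR 7.02e-05), the transcription factors Epas1 (4.25 ± 0.43, FDR 3.48e-09), Sox17 and Foxc1, the receptor Acvrl1 (4.79 ± 0.77, FDR 3.88e-05), the ephrin Efnb2 and the netrin receptor Unc5b. In glomeruli 5 were higher (1.59% of all genes), Acvrl1, Epas1, Gja4, Foxc1 and Nrp1, the VEGF co-receptor, which was 1326 to 1473 CPM there and 31.2 to 400.1 CPM in arterioles. Nrp1 was the only listed pathway gene that edgeR called lower in arterioles than in glomeruli, by a log2 fold change of -2.92 ± 0.55 (edgeR FDR 0.000941). Unc5b was 0.336 to 0.536 CPM in venules and 7.80 to 13.4 CPM in whole kidney, and was called lower in venules, as were 0.0217% of all genes (-4.78 ± 1.08, edgeR FDR 0.0347), a call that was lost without any 1 venule or WK library. The list's median log2 fold change was 3.70 in arterioles and 2.99 in glomeruli, against 0.22 and 0.25 over all genes. Some of these genes also stand in the marker lists used above. Of the 8 tested Notch targets listed besides the Hey genes, Efnb2 and Gata3 were called higher in arterioles (5.78% of all genes) and Gata3 in glomeruli (1.59%). Gata3 also stands in the mesangial and pericyte marker list, and Efnb2 in the arterial endothelial one. The part of these cells in their values was not tested.

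Between compartments, 12 of 64 pathway genes tested were called in at least 1 contrast, as were 13.1% of all genes tested. Maml3, a coactivator of the Notch complex, was the one gene of that complex called there, at 133 to 191 CPM in glomeruli, 0.587 to 6.93 CPM in peritubular capillaries and at most 2.19 CPM in venules. It was higher in glomeruli than in peritubular capillaries by 6.06 ± 1.66 on the log2 scale (edgeR FDR 0.0253) and than in venules by 7.63 ± 1.79 (FDR 0.0197). It was also called higher in arterioles than in venules, although its arteriole libraries were split, at 81.0, 0.322, 0.225 and 84.9 CPM. Numbl, an attenuator of Notch signaling, had no count in any capillary library and was called there against arterioles and glomeruli, with a fitted fold that is no bound. The arteriole libraries of Numbl were split as well, at 0.213, 169, 25.4 and 0.535 CPM. Neurl1b, a ubiquitin ligase for ligand uptake, was higher in arterioles than in peritubular capillaries by 4.04 ± 1.10 (edgeR FDR 0.0129).

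Over the 16 LMD libraries, the members that ran most alike were Notch4 and Jag2 (Pearson r of log2 CPM 0.87), followed by Notch2 and Jag1 (0.85). Notch1 ran least with the others, with r from -0.07 for Hey2 to 0.56 for Dll4. The libraries share group, depth and tissue content, so these values are a description. Among 10522 genes searched, those most like Notch3 were Hacd4 (r 0.91) and the actin-binding gene Tagln2 (0.91), those most like Jag1 were H2-K1 (0.91) and the pericyte marker Rgs5 (0.90), and those most like Hey2 were Nkx6-1 and Stmn2 (0.96 each). Notch4 ran with Rasgrf2 (0.90) and Inf2 (0.89), Jag2 with Map1a (0.94) and Tspan2 (0.93), and Dll4 with Plce1 (0.86) and Irf2bp1 (0.85). Notch1 ran with Tspan17 (0.93) and Tbc1d22a (0.86), Notch2 with Pls3 and Anxa5 (0.91 each), Hey1 with Tnfrsf10b (0.89) and Hid1 (0.87), and Heyl with Ttl (0.91) and Cracr2b (0.90).

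The members lie on 6 chromosomes in the GENCODE M21 annotation of GRCm38. Notch1 (ENSMUSG00000026923) spans 26457903 to 26516663 on chromosome 2, and on chromosome 3 lie Notch2 (ENSMUSG00000027878), at 98013527 to 98150361, and Hey1 (ENSMUSG00000040289), at 8663359 to 8667256. Notch3 (ENSMUSG00000038146) spans 32120820 to 32166852 on chromosome 17 and Notch4 (ENSMUSG00000015468) 34564268 to 34588503 on the same chromosome. Jag1 (ENSMUSG00000027276) spans 137081456 to 137116644 and Dll4 (ENSMUSG00000027314) 119325784 to 119335962 on chromosome 2, and Jag2 (ENSMUSG00000002799) spans 112907819 to 112929776 on chromosome 12. Hey2 (ENSMUSG00000019789) spans 30832359 to 30842801 on chromosome 10 and Heyl (ENSMUSG00000032744) 123233556 to 123249875 on chromosome 4. Jag1, Hey1, Hey2 and Heyl overlap no other annotated gene. Notch1, Notch3, Notch4 and Dll4 overlap a gene on the opposite strand, and Notch1, Notch2 and Jag2 one on the same strand, and since the strand setting of the counting is not stated in any source used here, reads of such pairs cannot be told apart.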

How the data were processed

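The 20 3′ end mRNA libraries were analysed, 4 for each of 5 groups set by GEO's labels. The authors deposited raw read counts per gene neither normalized nor filtered, in 1 table of 34255 genes, after trimming with bbduk, alignment with STAR to GRCm38.p6 and counting with htseq-count, per the study's methods; the submitters' processing notes also name GRCm39 and featureCounts, with no role. Of 168 columns of per-sample values, 20 belong to the samples used here and 148 were not used. The strand setting of the counting and the handling of molecular identifiers were not stated in any source used here, and PCR copies would make counting intervals too narrow.

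Counts were fitted in R 4.3.3 with edgeR 4.0.16 (TMM scaling, filterByExpr by group, quasi-likelihood F test, version 3 form), on all 20 libraries for the contrasts with whole kidney and on the 16 LMD libraries for contrasts between compartments. FDR values were adjusted by Benjamini-Hochberg across every gene tested, and a gene was called at an FDR under 0.05 with a log2 fold change past 1. Standard errors were taken from the fold change and the F statistic. Ratios to marker lists were compared with exact permutation tests, with 0.5 count for zero counts. The fits were tested on simulated data. Alternatives were DESeq2 1.42.0 (size factors and Wald test), no filter on low counts, the study's independent filter, the version 4 form of edgeR's test, other sets of libraries in the fit, a block by library number and leaving out each library.

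All 10 members are named. Of the wider pathway lists, up to 4 genes called per list are named, with the smallest p; Rbpj, Hes1 and the further genes of the arterial and venous list were added after their values were seen. The genes most like a member were the 2 with the highest Pearson correlation of log2 CPM over the 16 LMD libraries, predicted genes passed over, among genes with a mean of at least 10 CPM in a compartment. The members and all gene lists were chosen with earlier results of these data known.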

Additional observations from a re-analysis of the deposited data

Results flagged for a closer look

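Each member was searched in each group of 4 libraries for a single library whose gap to the nearest of the others exceeded Dixon's 95% critical value, as a share of the group's range. Of 50 groups, 9 held such a library, and 4 of the 9 were capillary 98. Chance flags about 1 in 20 groups only where values are normal. These CPM are skewed and often rest on few counts, so the 9 cannot be set against that rate. In that library Notch1 was 53.4 CPM (0.196 to 6.64 CPM in the other capillary libraries), Notch3 was 29.7 CPM (1.37 to 1.92 CPM), Notch4 was 3.73 CPM (0.994 to 1.17 CPM) and Dll4 was 29.5 CPM (0.124 to 1.47 CPM). In venule 93, Dll4 was 3.81 CPM, with at most 0.122 CPM in the other venule libraries, and Hey1 was 1.68 CPM, with no count in the others. Jag2 was 0.782 CPM in capillary 100, from 4 counts, and 0.147 to 0.249 CPM in the other capillary libraries. Hey2 was 3.74 CPM in glomerular 98 and at most 0.221 CPM in the other glomerular libraries. Heyl was 31.4 CPM in glomerular 96 and 5.85 to 10.1 CPM in the others.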

How the results depend on the processing

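Of 695 values of 101 fold changes under other settings, 605 kept their side of the threshold, 7 lost it, 83 gained it and 0 reversed. Of 1040 values with 1 library left out, 967 kept it, 60 lost it, 10 gained it and 3 reversed: Heyl between venules and whole kidney (-0.15 without venule 96, up to 2.54), Hey2 between glomeruli and capillaries (-0.76 without glomerular 98, up to 2.73) and Dll4 between capillaries and venules (-0.72 without capillary 98, up to 7.01). The DESeq2 test called 3 members in glomeruli against whole kidney (0 in the report), 5 between arterioles and glomeruli (1), 9 between arterioles and venules (4), 5 between glomeruli and capillaries (2), 2 each between glomeruli and venules and between capillaries and venules (0), and against the other 3 compartments 1 in glomeruli (0), 7 in capillaries (4) and 2 in venules (0). The version 4 form gave 5, 5 and 9 for the first 3 of these. In arterioles against whole kidney, both of these tests also called Dll4, Notch2 and Hey1. The independent filter gave 2 in glomeruli and 1 in venules against whole kidney, 3 between arterioles and glomeruli, 4 between glomeruli and capillaries, 2 between capillaries and venules and 1 for glomeruli against the others. No filter gave 2, 2 and 1 for glomeruli against whole kidney, arterioles against glomeruli and glomeruli against the others. Fitting only the groups compared gave 5 in glomeruli and 2 in capillaries against whole kidney and 2 between arterioles and glomeruli. Size factors gave 2 for the latter, and all 20 libraries 1 for glomeruli against the others. Size factors moved the median of all genes by 0.17 to 0.28 on the log2 scale in the contrasts of arterioles. The share of higher genes among all calls moved from 60.4% to 72.3% against glomeruli, from 57.3% to 69.9% against venules and from 19.1% to 6.67% between capillaries and venules. Without 1 library, arterioles held 4 to 6 calls against whole kidney, 0 to 1 against glomeruli, 6 to 8 against capillaries, 2 to 5 against venules (2 without venule 98 or 100) and 7 to 9 against the others. Glomeruli held 0 to 1 against the others (the 1 without capillary 100 or venule 93), 2 to 3 against capillaries and 0 elsewhere, and capillaries 0 to 1 against venules, the 1 without capillary 98. The cause of these changes was not tested. Values that rest on fewer than 10 counts lay mostly in capillaries and venules and limit the contrasts of those groups.

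For the wider pathway genes, arterioles held 9 calls against whole kidney, 27 by the DESeq2 test, 23 by the version 4 form and 5 to 10 without 1 library (5 without any WK library). Glomeruli held 6, with 10, 11 and, in the fit of only these groups, 20. Capillaries held 0, with 1 by DESeq2 and 3 in the fit of only these groups. Venules held 1, with 0 by the version 4 form, without a filter or without any 1 library, and 4 in the fit of only these groups. No scaled ratio passed after adjustment under any alternative, which the floor of the exact p makes hard to reach. The sign-flip test within library numbers cannot go below 0.125 with 4 pairs.

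The library numbers were tried as a replicate block. Deviations of same-numbered libraries correlated weakly (-0.0456 to 0.0626 over 40 pairs, 0 above 0.1), with a median of 0.0064 against -0.0020 for other pairs. As a hint from the data alone, 14 of 20 libraries correlated best with their own number, out of 4 numbers each. The paper's methods also state that arterioles, glomeruli and venules of a mouse were cut from the same slide. Groups may thus share mice, which the main fits, run without pairing, did not use. With the block, 2 members were called in glomeruli against whole kidney, 0 between arterioles and glomeruli and 0 pathway genes in venules. The member calls lost with it were Jag1 between arterioles and glomeruli, Hey1 between arterioles and capillaries, Notch2, Dll4 and Hey1 in arterioles against the others and Heyl in capillaries against the others.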
